A study of Mus musculus with 6 samples.

Results

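Polyamine synthesis and turnover was followed through 9 genes listed by symbol for their role in the pathway, out of 37991 genes in the count tables. They are the synthetic enzymes Odc1, Srm, Sms and Amd1, the turnover enzymes Sat1 and Smox, the antizymes Oaz1 and Oaz2 and the antizyme inhibitor Azin1. All 9 passed the filter on low counts, which left 16683 genes for testing. Polyadenylated RNA was sequenced from sorted bone marrow pre-B cells of C57BL/6 mice at 3 stages, with 2 libraries per stage and individual animals as replicates. The labels give 1 gate for all stages (B220 high, IgM low, IgD low), whereas the study's methods give it for wild type and premalignant cells and describe malignant cells as B220 positive and negative for IgM and IgD. Wild type cells came from mice aged 4 to 6 weeks, and premalignant cells from Eμ-Myc heterozygotes of the same age. Malignant cells came from Eμ-Myc heterozygotes aged 10 to 20 weeks, sacrificed once spontaneous lymphoma had developed. The immunoglobulin heavy chain enhancer of the transgene drives Myc in the B lineage, so the model holds Myc high in these cells and not in the whole animal. The malignant mice were also older than the others, and by the study's methods they included males, whereas the other mice were female. Age, and any difference in gate or sex, therefore cannot be told apart from malignancy, which includes the X-linked members Sms and Sat1.

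Putrescine, spermidine and spermine are small, positively charged amines that bind nucleic acids and are needed by growing cells. Ornithine decarboxylase (Odc1) makes putrescine, and spermidine synthase (Srm) and spermine synthase (Sms) extend it with aminopropyl groups that S-adenosylmethionine decarboxylase (Amd1) provides. Polyamines are removed by acetylation through Sat1 or by oxidation of spermine through Smox, while antizymes carry ornithine decarboxylase to the proteasome and Azin1 sequesters the antizymes. Odc1 is a textbook target gene of MYC, which binds the E-box CACGTG together with its partner MAX.

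The E-boxes found beside the start sites of Odc1, Sms and Amd1 are printed here because the 4 synthetic genes were called higher in both Eμ-Myc stages than in wild type. The sites shown were thus picked by outcome, and a part of these sites in the change of the genes was not tested. CACGTG, which reads the same on both strands, was searched in NCBIM37 (mm9) from 1000 bases upstream to 1000 bases downstream of each annotated gene start. It was present in this window in 31.9% of 13792 tested protein-coding genes, and 7.16% held at least 2 copies. Capitals mark the motif, and each line gives 30 bases of the gene's own strand.
Odc1, intron, chr12:17551992-17552021, plus strand: gggatgtgcggcCACGTGtcgcgaggcccg
Odc1, intron, chr12:17552032-17552061, plus strand: gccggcaggggaCACGTGgcccgggaccgg
Sms, upstream, chrX:153930398-153930427, minus strand: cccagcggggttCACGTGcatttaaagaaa
Amd1, upstream, chr10:40022455-40022484, minus strand: gtctcgtggaaaCACGTGaaaaaatggttt

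Odc1 held 2 copies, which begin 326 and 366 bases downstream of its annotated start. Sms and Amd1 held 1 copy each, 196 and 480 bases upstream of theirs. Of the other members listed, Oaz2, which was called lower in both Eμ-Myc stages, held 1 copy, in an exon 90 bases downstream. Sat1, Smox and Oaz1 held none. Sites were listed only for members with a RefSeq promoter entry, so the result for Srm and Azin1 is not given. The 250 bases upstream of the RefSeq start of Odc1 (GRCm38.p6, another build) held no CACGTG but 2 copies of the variant letters CACGCG or CGCGTG, marked in capitals, and 80.0% of its bases were G or C.
Odc1, chr12:17544623-17544872, plus strand: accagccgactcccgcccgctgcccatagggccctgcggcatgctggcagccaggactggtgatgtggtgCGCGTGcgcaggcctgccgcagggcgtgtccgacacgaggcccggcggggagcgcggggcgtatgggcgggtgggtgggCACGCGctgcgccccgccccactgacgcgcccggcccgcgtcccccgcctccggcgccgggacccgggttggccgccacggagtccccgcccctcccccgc

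Of the other entries, Oaz1 and the second of 2 Sms starts held 1 copy of the variant letters, and the first Sms start held 1 CACGTG. Amd1, Sat1, Smox and Oaz2 held none of these letters. Among 32851 RefSeq promoters of this length, 7.62% held CACGCG or CGCGTG and 6.02% held CACGTG. Entries were matched for 7 of the 9 members, Srm and Azin1 having none. These matches describe letters, and binding at them was not measured in the RNA data.

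Total counts per library lay between 30031100 and 53453055, so that 3 counts corresponded to 0.0526 to 0.108 CPM (counts scaled to library size with edgeR's TMM factors). Myc was at 33.8 and 41.4 CPM in wild type, at 1164 and 1155 CPM in premalignant and at 1732 and 1578 CPM in malignant libraries. The B-lineage gene Cd79a was at 732 CPM or more in every library. It was called lower than in wild type in premalignant (log2 -0.63, edgeR adjusted p = 0.0493) and malignant cells (log2 -0.72, edgeR adjusted p = 0.0245). The surrogate light chain gene Vpreb1, which marks early pre-B cells, fell further, from 114 and 131 CPM in wild type. Vpreb1 was already at 9.74 and 4.88 CPM in premalignant libraries, and at 0.146 and 4.05 CPM in malignant libraries. Of 11 pre-B and B-lineage markers, 10 were called lower in each Eμ-Myc stage compared with wild type. Over all genes tested, 20.3% were called lower in premalignant and 24.3% in malignant cells. Wild type replicate 2 stood apart, because 10 immediate-early genes summed to 4283 CPM there and to between 209 and 394 CPM in the other 5 libraries. Its summed erythroid (1379 CPM) and myeloid (1735 CPM) markers were also the highest of all libraries. A gene was called at a Benjamini-Hochberg adjusted p of 0.1 or less in edgeR's quasi-likelihood test, provided that its log2 fold change was 0.5 or more in size.

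The 4 synthetic enzymes were higher and both turnover enzymes lower in premalignant pre-B cells compared with wild type. Of the 9 members, 7 were called in this comparison, 4 higher and 3 lower, against a background of 39.3% of all genes tested (19% higher and 20.3% lower). In malignant compared with wild type cells 8 of 9 were called, 5 higher and 3 lower, against 49.2% of all genes (24.9% higher and 24.3% lower). The median log2 fold change of the synthetic enzymes was 1.61 in premalignant and 2.14 in malignant cells, beside medians over all genes of -0.0815 and -0.0193. The libraries did not overlap for 8 members in either comparison, as for 77.4% and 71.7% of all genes. Both comparisons use the same wild type libraries. Without wild type replicate 2, 6 members were called in premalignant and 7 in malignant cells, and without premalignant replicate 2 the first count was 4. With 2 libraries against 2, an exact permutation test of a single value cannot go below 0.333, so the tests rest on the fit across all genes.

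**Figure D1:**
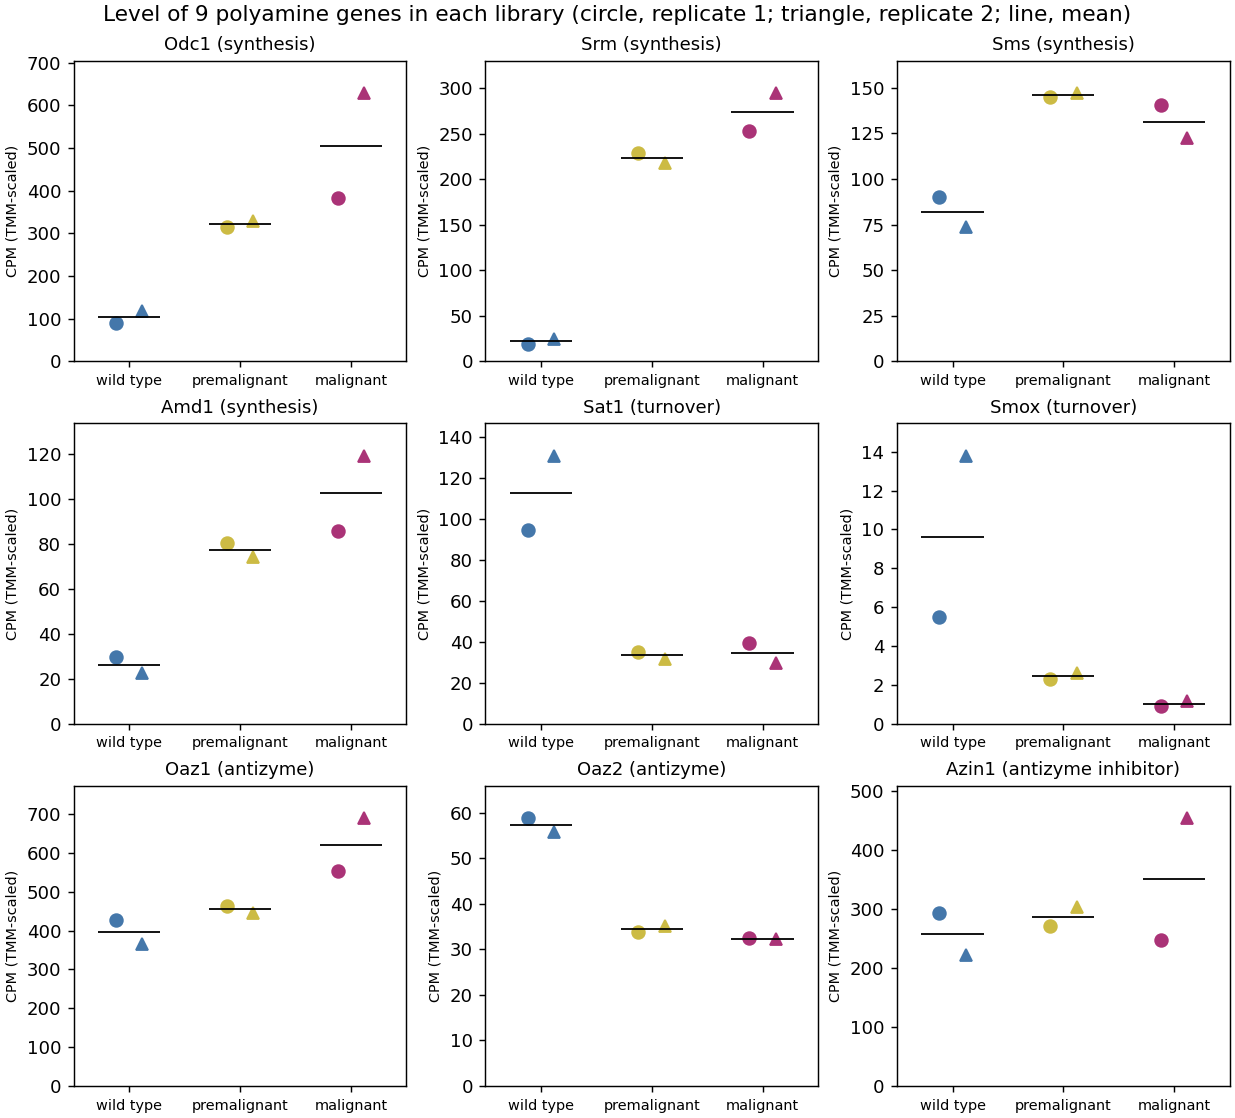
Expression of the 9 polyamine genes in each of the 6 libraries, in CPM on a linear axis from 0 for each gene, with circles for replicate 1, triangles for replicate 2 and a line at the mean of each stage. The synthetic genes are lowest in both wild type libraries, Sat1 and Smox are highest there, and Azin1 overlaps between stages.

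Srm, spermidine synthase (chr4, 147965612 to 147969102, NCBIM37), showed the largest change of the 9 against wild type. It measured 19.3 and 24.7 CPM in wild type, 228 and 217 CPM in premalignant and 253 and 295 CPM in malignant libraries. No library of the Eμ-Myc mice came near the wild type range. Srm was 10.1-fold higher in premalignant cells compared with wild type (log2 3.34 ± 0.18 SE, edgeR adjusted p = 0.00141) and 12.5-fold higher in malignant cells (log2 3.64 ± 0.18, edgeR adjusted p = 0.000526).

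Odc1, the rate-limiting enzyme that makes putrescine (chr12, 17551679 to 17558308), measured 88.4 and 117 CPM in wild type, 315 and 329 CPM in premalignant and 383 and 628 CPM in malignant libraries. The premalignant pair lay close together, and malignant replicate 2 stood well above malignant replicate 1. Odc1 was 3.14-fold higher in premalignant (log2 1.65 ± 0.27 SE, edgeR adjusted p = 0.00785) and 4.92-fold higher in malignant cells than in the wild type (log2 2.30 ± 0.27, edgeR adjusted p = 0.00180).

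Amd1, which supplies the aminopropyl donor to both synthases (chr10, 40007265 to 40021992), measured 29.6 and 22.5 CPM in wild type, 80.4 and 74.0 CPM in premalignant and 85.8 and 119 CPM in malignant libraries. The stages did not overlap. Amd1 rose 2.96-fold in premalignant (log2 1.57 ± 0.22 SE, edgeR adjusted p = 0.00526) and 3.93-fold in malignant cells (log2 1.97 ± 0.22, edgeR adjusted p = 0.00155).

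Sms, which converts spermidine to spermine (chrX, 153881787 to 153930219), moved least among the synthetic enzymes. It measured 90.2 and 73.9 CPM in wild type, 145 and 147 CPM in premalignant and 140 and 123 CPM in malignant libraries. Both Eμ-Myc stages lay above both wild type libraries, with the malignant pair below the premalignant pair. Sms was 1.78-fold higher in premalignant (log2 0.83 ± 0.15 SE, edgeR adjusted p = 0.0115) and 1.60-fold higher in malignant cells (log2 0.68 ± 0.15, edgeR adjusted p = 0.0142). Without premalignant replicate 2 the first call was lost at an edgeR adjusted p of 0.107, and the second was lost under scaling to library totals, where the log2 fold change was 0.38.

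Per kilobase of exon, the order of the synthetic enzymes changed with the stage. In wild type libraries Odc1 led at a mean of 40.3 RPKM (CPM per kilobase of exon), while Srm and Sms lay close at 13.8 and 13.7 RPKM and their ranges overlapped. In premalignant libraries Srm at a mean of 140 RPKM and Odc1 at 127 RPKM stood far above Sms at 24.3 RPKM and Amd1 at 24.1 RPKM. In malignant libraries Odc1 had the higher mean, 199 against 171 RPKM for Srm, but the replicates differed in order, with Odc1 at 150 and Srm at 158 RPKM in replicate 1 and 247 and 184 RPKM in replicate 2. The ratio of Srm to Sms was 0.804 and 1.26 in wild type, 5.93 and 5.56 in premalignant and 6.77 and 9.03 in malignant libraries. Levels between these genes are uncertain, because only 43.5% of the 50-base windows in Odc1 exons and 11.0% of those in Amd1 exons occur once in the genome. The corresponding shares were 96.2% for Srm and 80.3% for Sms, and reads from close copies may have been dropped or split by the counting.

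Sat1, the acetyltransferase that starts polyamine catabolism and export (chrX, 151647675 to 151650992), was lower in both Eμ-Myc stages. It measured 94.4 and 131 CPM in wild type, 34.9 and 31.7 CPM in premalignant and 39.5 and 29.8 CPM in malignant libraries. The premalignant and malignant values overlapped each other and lay far below wild type. Sat1 was 3.38-fold lower in premalignant (log2 -1.76 ± 0.23 SE, edgeR adjusted p = 0.00408) and 3.25-fold lower in malignant cells (log2 -1.70 ± 0.22, edgeR adjusted p = 0.00248). In bulk samples, fewer cells of a type and less RNA per cell cannot be told apart.

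Smox, the oxidase that converts spermine back to spermidine (chr2, 131317232 to 131351658), was the least abundant member. It measured 5.49 and 13.8 CPM in wild type, 2.27 and 2.59 CPM in premalignant and 0.879 and 1.15 CPM in malignant libraries, and the lowest of these values rested on 42 counts. The wild type libraries differed from each other more than the Eμ-Myc libraries of either stage did. Smox was 3.96-fold lower in premalignant (log2 -1.98 ± 0.50 SE, edgeR adjusted p = 0.0286) and 9.51-fold lower in malignant cells (log2 -3.25 ± 0.53, edgeR adjusted p = 0.00488). The premalignant call was lost without wild type replicate 2 (log2 -1.17, edgeR adjusted p = 0.153), without premalignant replicate 1 (edgeR adjusted p = 0.172) and without premalignant replicate 2 (edgeR adjusted p = 0.153). The malignant call held without wild type replicate 2, at a log2 fold change of -2.44 and an edgeR adjusted p of 0.0247.

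Markers of several other blood cells were lower together with Sat1 and Smox, and so were pre-B markers. All 8 myeloid markers were called lower in both Eμ-Myc stages than in wild type. Of all genes tested, 20.3% were called lower in premalignant and 24.3% in malignant cells. The myeloid sum was 791 and 1735 CPM in wild type, 236 and 254 CPM in premalignant and 56.7 and 115 CPM in malignant libraries. Of 7 erythroid markers 6 were lower in each stage, with sums of 380 and 1379 CPM in wild type and of 56.8 to 167 CPM in the Eμ-Myc libraries. All 4 natural killer markers were lower, with sums of 185 and 55.9 CPM in wild type and of 0.774 to 9.15 CPM elsewhere, and no marker of these 3 lists was at 0 in all libraries. Of 6 T cell markers 4 were lower in each stage. Their sums were 119 and 77.1 CPM in wild type, 42.5 and 23.3 CPM in premalignant and 13.1 and 74.0 CPM in malignant libraries. The pre-B sum was 7329.5 and 8051.8 CPM in wild type and 3012.5 to 3516.4 CPM in the Eμ-Myc libraries. As for Sat1 and Smox, the myeloid, erythroid and pre-B sums were higher in wild type replicate 2 than in replicate 1. The part of other blood cells in the fall of Sat1 and Smox was not tested. Without wild type replicate 2, the log2 fold changes of Sat1 were -1.50 in premalignant and -1.45 in malignant cells. This does not test the part of other blood cells. The remaining wild type library still held 791 CPM of myeloid and 380 CPM of erythroid markers, above every Eμ-Myc library.

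**Figure D2:**
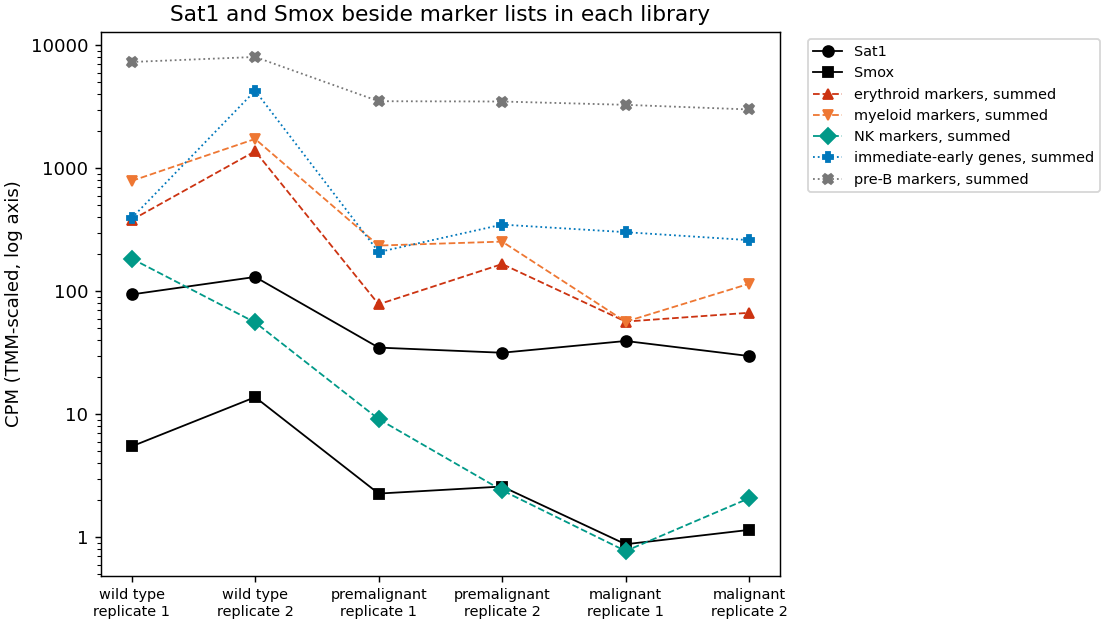
Expression of Sat1 and Smox and the summed expression of erythroid, myeloid, natural killer, immediate-early and pre-B genes in each of the 6 libraries, in CPM on a log axis, with each point 1 library and lines that join the points of one gene or list. Wild type replicate 2 is the highest library for Sat1, Smox, and the myeloid, erythroid, immediate-early and pre-B sums.

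Oaz1, the abundant antizyme that is made when polyamines shift the ribosome to another reading frame (chr10, 80289401 to 80292035), measured 427 and 365 CPM in wild type, 463 and 446 CPM in premalignant and 552 and 690 CPM in malignant libraries. The stages followed each other without overlap. The difference between premalignant and wild type cells was log2 0.20 (95% interval -0.21 to 0.61, edgeR adjusted p = 0.403). In malignant cells Oaz1 was 1.57-fold higher than in wild type (log2 0.65 ± 0.17 SE, edgeR adjusted p = 0.0234). This call was lost with upper-quartile scaling (log2 0.48), with scaling to library totals (log2 0.36, edgeR adjusted p = 0.14) and without wild type replicate 2 (log2 0.54, edgeR adjusted p = 0.129).

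Oaz2, a second antizyme, changed in the other direction (chr9, 65515808 to 65538107). It measured 58.9 and 55.8 CPM in wild type, 33.9 and 35.2 CPM in premalignant and 32.5 and 32.2 CPM in malignant libraries. Replicates of each stage lay close together, and both Eμ-Myc stages lay below wild type. Oaz2 was 1.66-fold lower in premalignant (log2 -0.73 ± 0.13 SE, edgeR adjusted p = 0.0115) and 1.77-fold lower in malignant cells than in the wild type (log2 -0.83 ± 0.14, edgeR adjusted p = 0.00493). The premalignant call was lost when premalignant replicate 1 or 2 was left out (edgeR adjusted p = 0.129 and 0.125).

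Azin1, a relative of ornithine decarboxylase without its activity (chr15, 38417185 to 38449021), was the one member called in neither comparison with wild type. It measured 293 and 222 CPM in wild type, 271 and 303 CPM in premalignant and 246 and 454 CPM in malignant libraries. All 3 stages overlapped, and malignant replicate 2 was the highest. The log2 fold change was 0.16 in premalignant (95% interval -0.57 to 0.88, edgeR adjusted p = 0.725) and 0.44 in malignant cells (interval -0.29 to 1.17, edgeR adjusted p = 0.28). Without malignant replicate 1, Azin1 was called higher against wild type (log2 0.83, edgeR adjusted p = 0.0125).

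**Figure D3:**
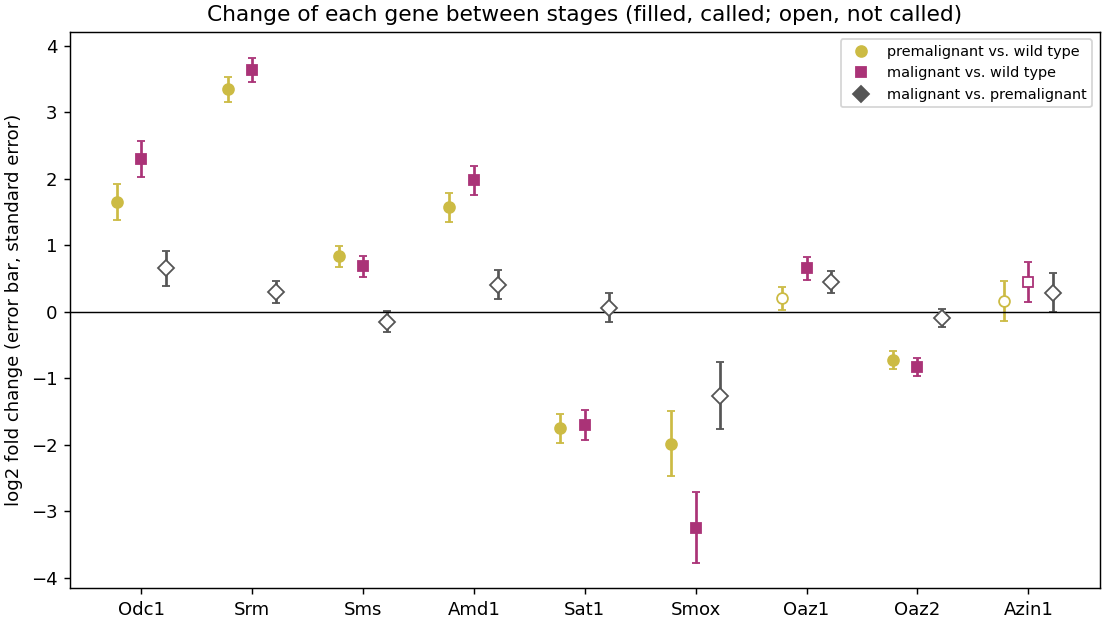
Log2 fold changes of the 9 polyamine genes for premalignant cells against wild type, malignant cells against wild type, and malignant against premalignant cells, with bars of 1 standard error, filled symbols for called genes and open symbols for the others. Srm lies highest at 3.34 and 3.64 against wild type, Smox lies lowest at -1.98 and -3.25, and no member was called between malignant and premalignant cells.

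From premalignant to malignant cells, 0 of 9 members were called by edgeR or by DESeq2, against a background of 6.18% of all genes by edgeR (3.73% higher and 2.45% lower). At an unadjusted p under 0.05 there were 3 members, and 3313 of all genes tested. The libraries did not overlap for 7 members and for 51.1% of all genes. The median log2 fold change of the members was 0.287, beside 0.0431 for all genes. Odc1 showed a log2 difference of 0.65 (95% interval 0.016 to 1.28, edgeR adjusted p = 0.242), Oaz1 one of 0.45 (interval 0.043 to 0.86, edgeR adjusted p = 0.212) and Smox one of -1.27 (interval -2.48 to -0.049, edgeR adjusted p = 0.236). For Srm the difference was 0.30 (interval -0.10 to 0.70), for Amd1 0.41 (interval -0.11 to 0.93) and for Sms -0.15 (interval -0.52 to 0.22). For Sat1 it was 0.06 (interval -0.47 to 0.59), for Oaz2 -0.09 (interval -0.42 to 0.23) and for Azin1 0.29 (interval -0.44 to 1.01). The malignant replicates differed most, with Odc1, Amd1 and Azin1 higher in replicate 2. Without malignant replicate 1, the malignant stage rested on 1 library. The log2 differences were then 0.96 for Odc1, 0.62 for Amd1, 0.60 for Oaz1 and 0.66 for Azin1.

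The change from wild type to premalignant was then tested against the change from premalignant to malignant in 1 contrast, with the same threshold on the adjusted p and no fold limit. It was called for 3 of 9 members, against a background of 9.63% of all genes. Both steps use the same premalignant libraries, with opposite sign. Srm rose more in the first step (log2 difference of the 2 steps 3.05 ± 0.28 SE, edgeR adjusted p = 0.0191). Sms (0.98 ± 0.26, edgeR adjusted p = 0.0944) rose in the first step and stood at a log2 of -0.15 in the second. Sat1 (-1.82 ± 0.39, edgeR adjusted p = 0.0652) fell in the first step and stood at a log2 of 0.06 in the second. Odc1 at 1.00 (95% interval -0.076 to 2.08, edgeR adjusted p = 0.241) and Amd1 at 1.16 (interval 0.28 to 2.04, edgeR adjusted p = 0.131) were not called. No member was called when wild type replicate 2, premalignant replicate 1 or premalignant replicate 2 was left out, and Srm without wild type replicate 2 stood at 3.24 with an edgeR adjusted p of 0.119. With the replicate number as a block the call of Sms was lost (0.99, edgeR adjusted p = 0.108).

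Set against each other per kilobase, the synthetic enzymes stood further above Sat1 and Smox in the Eμ-Myc libraries. The summed level of the 4 synthetic enzymes was 71.0 and 80.7 RPKM in wild type, 316 and 313 RPKM in premalignant and 359 and 489 RPKM in malignant libraries. The sum of Sat1 and Smox was 35.4 and 50.8 RPKM in wild type and between 11.0 and 14.4 RPKM in the 4 Eμ-Myc libraries. The ratio of the first sum to the second was 2.0 and 1.59 in wild type, 24.0 and 25.9 in premalignant and 24.8 and 44.3 in malignant libraries. These sums leave out the acetylpolyamine oxidase Paox, which was higher in the Eμ-Myc stages, and with Paox added to turnover the ratios were 1.74 and 1.45 in wild type, 14.1 and 15.1 in premalignant and 15.1 and 20.5 in malignant libraries. The ratio of Odc1 to Sat1 per kilobase of exon was 1.02 and 0.974 in wild type and 9.83 to 23.0 in the Eμ-Myc libraries. How the levels of these genes compare within a library is uncertain. Only 43.5% of Odc1 exon windows and 84.6% of Sat1 exon windows occur once in the genome. Against its inhibitor Oaz1, Odc1 stood at 0.087 and 0.135 in wild type, at 0.286 and 0.311 in premalignant and at 0.292 and 0.383 in malignant libraries. Oaz1 therefore remained the more abundant of the pair per kilobase in every library, although only 13.5% of its exon windows occur once in the genome. Azin1 relative to Oaz1 lay between 0.0767 and 0.118 in all libraries, with the stages overlapping.

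**Figure D4:**
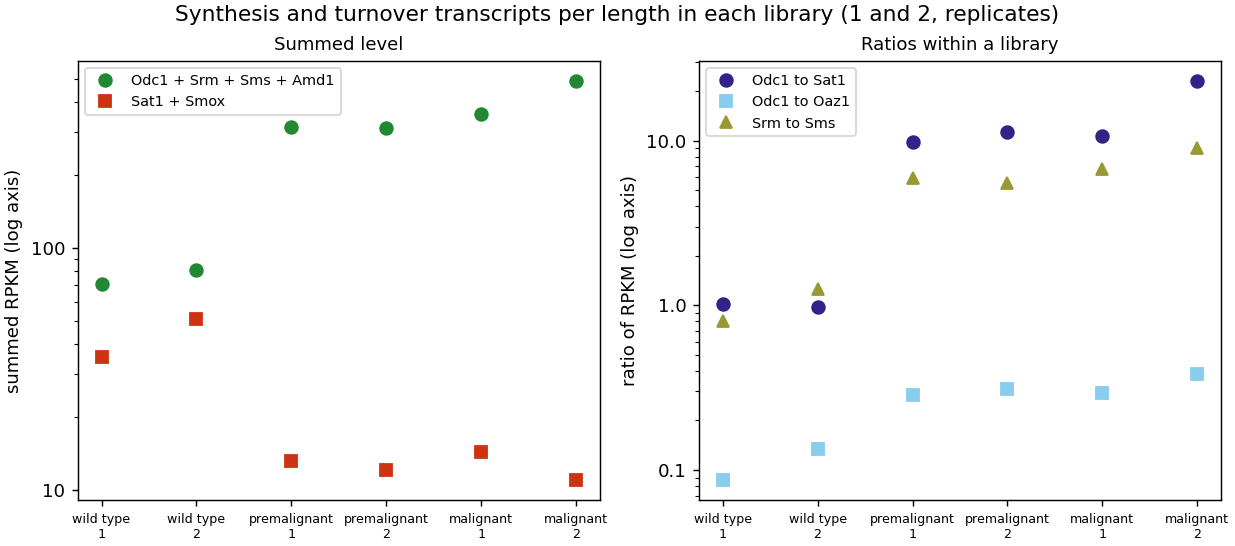
Left, summed expression in RPKM of the synthetic enzymes (Odc1, Srm, Sms and Amd1) and of Sat1 with Smox in each of the 6 libraries, and right, ratios of RPKM for Odc1 to Sat1, Odc1 to Oaz1 and Srm to Sms, both on log axes with each point 1 library. The sums are closest in wild type and farthest apart in malignant replicate 2, where Odc1 to Sat1 reaches 23.0.

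The genes whose pattern over the 6 libraries was most like that of Odc1 were Polr1a, the large subunit of RNA polymerase I, Utp20, Pus7l, Bzw2 and Dph1. Likeness was the root mean square difference of log2(CPM + 0.5) after each gene's mean was taken off, over 8212 protein-coding genes with a mean of at least 10 CPM. The values were 0.111 for Polr1a, 0.123 for Utp20, 0.148 for Pus7l and 0.157 for both Bzw2 and Dph1, beside a median of 0.95 for all genes compared. Polr1a measured 49.2 and 59.4 CPM in wild type, 185 and 206 CPM in premalignant and 237 and 331 CPM in malignant libraries. For Sat1 the closest were Unc93b1 at 0.093, Vangl2 and Eif2c4 at 0.11, Tom1l2 at 0.116 and Sema4b at 0.121, beside a median of 0.945. Unc93b1, which carries Toll-like receptors to endosomes, measured 637 and 864 CPM in wild type and between 220 and 306 CPM in the Eμ-Myc libraries.

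The wider pathway was described with 29 further genes, of which 25 passed the filter on low counts, and Sat2, Satl1, Agmat and Mat1a were not tested. In premalignant compared with wild type cells 14 were higher, 1 was lower and 10 were not called, with a median log2 fold change of 0.662. In malignant compared with wild type cells 14 were higher, 4 lower and 7 not called, with a median of 1.11. The 4 lower were Oaz3 (log2 -3.32), Slc18b1 (-1.73), Atp13a2 (-1.42) and Eif5a2 (-1.15). Oaz3 was at 0.508 CPM or less in every library, and the calls of Oaz3 and Eif5a2 were lost without either wild type library. The backgrounds of 39.3% (19% higher and 20.3% lower) and 49.2% (24.9% higher and 24.3% lower) apply here and to the groups by role below. The median over all genes lay near 0 in both comparisons.

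Ornithine supply held 6 tested genes, of which 3 were higher in premalignant cells. Slc7a1, which imports arginine and ornithine, measured 51.7 and 47.6 CPM in wild type, 209 and 226 CPM in premalignant and 287 and 247 CPM in malignant libraries. It rose by a log2 of 2.13 ± 0.15 (SE, edgeR adjusted p = 0.00147) in premalignant cells. Aldh18a1, which makes the glutamate semialdehyde that ornithine can be built from, rose by a log2 of 1.71 ± 0.14 (edgeR adjusted p = 0.00179), and Oat by 0.56 ± 0.18 (edgeR adjusted p = 0.0609). The call of Oat was lost without wild type replicate 2, premalignant replicate 1 or premalignant replicate 2 (edgeR adjusted p = 0.237, 0.174 and 0.317). In malignant cells Slc7a1 and Aldh18a1 were called higher, and Arg1 was called on 1 library, with 2.03 CPM in malignant replicate 1 and 0.211 to 0.43 CPM in the other 5. Without that library the log2 fold change of Arg1 was 0.58 (edgeR adjusted p = 0.516), and its call was also lost without either wild type or either premalignant library.

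Methionine and methylthioadenosine genes, which make the aminopropyl donor and recover what it leaves behind, were higher for 5 of 7 tested genes in both comparisons. Mat2a, which makes S-adenosylmethionine, measured 313 and 198 CPM in wild type, 761 and 580 CPM in premalignant and 779 and 930 CPM in malignant libraries (log2 1.39 ± 0.27 and 1.74 ± 0.27 against wild type, edgeR adjusted p = 0.0128 and 0.00413). Mtap, the phosphorylase that salvages methylthioadenosine, rose by a log2 of 1.74 ± 0.23 in premalignant (edgeR adjusted p = 0.00433) and 2.24 ± 0.23 in malignant cells (edgeR adjusted p = 0.00122). The later salvage genes Mri1, Enoph1 and Adi1 were also called higher in both comparisons, while Mat2b and Apip were called in neither.

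Hypusination, which uses spermidine to modify the translation factor eIF5A, held 4 tested genes. Eif5a measured 481 and 413 CPM in wild type, 1505 and 1526 CPM in premalignant and 1878 and 1786 CPM in malignant libraries, a log2 rise of 1.76 ± 0.16 in premalignant cells (SE, edgeR adjusted p = 0.00195). Dohh, the second enzyme of the modification, rose by a log2 of 0.98 ± 0.24 (edgeR adjusted p = 0.0283), whereas Dhps, the first, showed 0.29 ± 0.15 (edgeR adjusted p = 0.194). The call of Dohh was lost without either wild type or either premalignant library (edgeR adjusted p from 0.129 to 0.14). Eif5a2, a close relative of Eif5a, was lower in malignant than in premalignant cells (log2 -1.75 ± 0.42, edgeR adjusted p = 0.0948), and it shares exonic bases with another annotated gene.

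Transport held 4 tested genes. Slc18b1 was not called in premalignant cells (log2 -0.75 ± 0.35 SE, edgeR adjusted p = 0.153) and was lower in malignant cells than in wild type (log2 -1.73 ± 0.37, edgeR adjusted p = 0.0117). Atp13a3, a P5B-type ATPase that carries polyamines, was higher in premalignant cells (log2 0.66 ± 0.18 SE, edgeR adjusted p = 0.0358), and Atp13a2, which exports polyamines from the lysosome, was lower (log2 -1.07 ± 0.24, edgeR adjusted p = 0.0203). The call of Atp13a2, the one further gene lower in premalignant cells, was lost without premalignant replicate 1 (log2 -1.11, edgeR adjusted p = 0.123) or 2 (log2 -1.02, edgeR adjusted p = 0.148). The call of Atp13a3 was lost without wild type replicate 2 or either premalignant library (edgeR adjusted p from 0.18 to 0.196). Slc3a2, the shared heavy chain of amino acid exchangers, was the one further gene higher in malignant than in premalignant cells (log2 0.68 ± 0.14, edgeR adjusted p = 0.0622). In this comparison 1 of the 25 further genes was called higher and 1 lower, near the background of 6.18% of all genes (3.73% higher and 2.45% lower). When either wild type or either premalignant library was left out, 0 of the 25 further genes were called between malignant and premalignant cells. The CPM of Slc3a2 was 55.0 and 61.6 in wild type, 102 and 107 in premalignant and 178 and 159 in malignant libraries. Among the other enzymes, the Amd1 copy Amd2 was listed between 0.425 and 4.12 CPM and rose in both comparisons with wild type, but only 10.3% of its exon windows occur once in the genome. Paox, the acetylpolyamine oxidase downstream of Sat1, was higher in premalignant (log2 0.81 ± 0.23, edgeR adjusted p = 0.0437) and in malignant cells (log2 1.11 ± 0.23, edgeR adjusted p = 0.0116), opposite in direction to Sat1 and Smox, with 23.0% of its windows found once. Its premalignant call was lost without any 1 of the wild type and premalignant libraries (edgeR adjusted p from 0.131 to 0.224), and its malignant call was not lost without any 1 library.

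**Figure D5:**
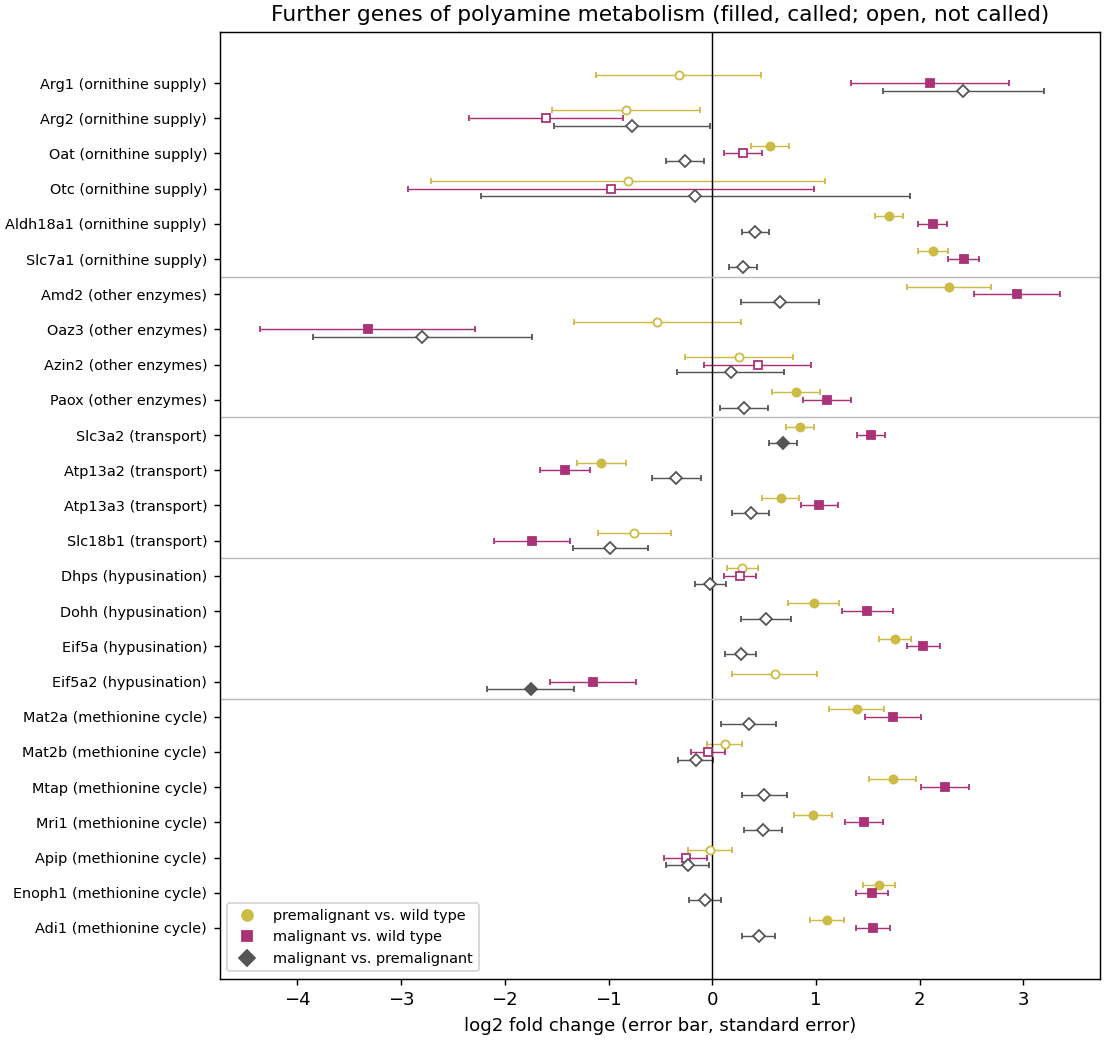
Log2 fold changes of the 25 tested further polyamine pathway genes, grouped by role, in the 3 comparisons of stages, with bars of 1 standard error, filled symbols for called genes and open symbols for the others. Of the 25, 14 were called higher in each comparison with wild type, and Slc3a2 and Eif5a2 are the filled symbols between malignant and premalignant cells.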

How the data were processed

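RNA-seq of 6 libraries was used, with stage and replicate number taken from the sample labels. The authors aligned 50-base single-end reads to mm9 with TopHat (the submitters' processing notes also name CASAVA 1.8.2, Bowtie, HTSeq and DESeq), used HTSeq to obtain gene counts, and these unnormalized counts are the deposited values. The HTSeq options are not given in the sources used here. Deposited DEseq tables of stage means, fold changes and p-values were not used.

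Counts were tested with edgeR 4.0.16 (R 4.3.3), with TMM scaling, its default filter on low counts, 1 quasi-likelihood fit of all 6 libraries and Benjamini-Hochberg adjustment over 16683 genes. Standard errors come from the fold change and its F statistic. DESeq2 1.42.0, other scalings, filters and thresholds, the replicate number as a block and leaving out each library were alternatives. TMM takes most genes as unchanged, so a change in total RNA per cell would not be seen. Total counts ranged from 30031100 to 53453055, and the level given for 3 counts covers counting error only.

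Symbols, coordinates and exon lengths come from GENCODE vM1 on NCBIM37 (mm9), which gave a symbol to 37205 of 37991 identifiers. Promoter sequences come from RefSeq (GRCm38.p6). The named genes are the members, Myc, the polyamine lists and, for Odc1 and Sat1, the 5 genes most alike, and a few cell markers on which a result turned. Members and lists were chosen with earlier results of these data known. P-values rest on the spread between the 2 libraries of each stage. The main fit pools this spread over all stages and shares information across genes. A p-value is therefore not a measure of the compared stages alone.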

Additional observations from a re-analysis of the deposited data

How the results depend on the processing

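The limits were the 2 libraries per stage, the absence of a measure of RNA per cell, the spread between the malignant replicates and the reads of gene copies. Genes called in premalignant vs. wild type numbered 6563, and 4282 with the log2 limit raised to 1. At that limit 5 members were called in malignant vs. wild type, and 9 further pathway genes in premalignant vs. wild type.

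In malignant vs. premalignant, 1031 genes were called, 2169 with DESeq2, 2810 without a filter on low counts, 258 when only the stages compared were fitted and 407 at an FDR of 0.05. Without the filter 2 members (Odc1 higher, Smox lower) and 4 further pathway genes were called. The 2 further genes called became 0 with only the stages compared or at an FDR of 0.05, and 1 with the log2 limit at 1. The difference of the 2 steps was called for 5 members with DESeq2, 5 without the filter and 1 at an FDR of 0.05.

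Leaving out 1 library gave 2094 to 8455 genes in premalignant vs. wild type and 0 to 3805 in malignant vs. premalignant. Members numbered 4 to 7 in the first, 0 to 4 in the second and 0 to 5 for the difference of the 2 steps, and further pathway genes in malignant vs. premalignant numbered 0 to 6.

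Values that changed sign belonged to members not called in that comparison. Scaling to library totals moved the median of all genes by -0.21 in premalignant and -0.295 in malignant vs. wild type, and gave -0.011 for Oaz1 and -0.055 for Azin1 in the first. Upper-quartile scaling moved it by -0.167 in malignant vs. wild type. For Sat1 in malignant vs. premalignant, upper-quartile scaling gave -0.025 and library totals -0.032, and leaving out 1 library gave -0.163 to 0.209. Leaving out 1 library gave Azin1 values of -0.028 to 0.376 in premalignant vs. wild type, -0.041 to 0.826 in malignant vs. wild type and -0.254 to 0.661 in malignant vs. premalignant. For the difference of the 2 steps it gave -1.229 to 0.094 for Smox, -0.392 to 0.012 for Oaz1 and -0.496 to 0.467 for Azin1. The cause was not tested.

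The stages share only replicate numbers, and deviations of same-numbered libraries correlated at 0.412, 0.0569 and 0.128 between stages, so the numbers were not taken to pair the samples. With the replicate number as a block, 6575, 8224 and 940 genes were called in the 3 comparisons, with 7, 8 and 0 members. The block changed no member's call in these comparisons, and 2 in place of 3 members were called for the difference of the 2 steps.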
